A study of Homo sapiens with 18 samples.

Results

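The genes described here encode the nuclear lamina and the complexes that tie it to the cytoskeleton: the lamins *LMNA*, *LMNB1* and *LMNB2*, the inner nuclear membrane proteins *EMD*, *LBR* and *TMPO*, the SUN proteins *SUN1* and *SUN2*, and the nesprins *SYNE1* and *SYNE2*. They were picked by gene symbol, and all 10 were found among the 21944 genes of the authors' deposited table and had a value at 3, 6 and 24 h. Human embryonic stem cell-derived pancreatic progenitors at day 19 of differentiation were detached and replated on laminin-411 (LN411), which cells hold only weakly, or on fibronectin (FN), and polyadenylated RNA was sequenced 3, 6 or 24 h later, with 3 samples in each of the 6 groups and 18 samples in all. Every group was in vitro differentiated in the same way, and the groups differed only by matrix and time. The cells came from NGN3-GFP, a reporter line for *NEUROG3* derived from SA121, as the study's text and the growth protocol say, although the line field of the labels reads HUES4. The study describes the 3 samples of a group as biological replicates, and whether each came from a differentiation of its own is not given in the sources used here. In bulk RNA, fewer cells of a type and less RNA per cell cannot be told apart.

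The lamina is a meshwork of lamin filaments under the inner nuclear membrane. A-type lamins, lamin A and lamin C, are made from *LMNA* by alternative splicing, whereas the B-type lamins come from *LMNB1* and *LMNB2*. Across tissues, A-type lamins are known to be more abundant where the matrix is stiff. SUN proteins span the inner and nesprins the outer nuclear membrane, and their joined ends form the linker of nucleoskeleton and cytoskeleton (LINC) complex, through which actin, microtubules and intermediate filaments pull on the nucleus. Emerin and the LAP2 proteins made from *TMPO* bind the chromatin protein BAF, and the lamin B receptor made from *LBR* anchors heterochromatin.

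The deposited table gives for each gene a mean normalized count over all samples and, for each time, the log2 fold change between LN411 and FN (positive where LN411 is higher) with its standard error (SE). Words such as fell, rose and decrease below compare LN411 with FN at the same time. How a gene changed over time on either matrix cannot be read from these values. Values of single samples were not used here, which leaves library depth unknown and the spread between samples visible through the SE alone. A gene was called when its Benjamini-Hochberg adjusted p-value, recomputed from the log2 fold change and SE over all genes tested at that time, was under 0.05. Of the 9 pancreatic progenitor markers all were listed, and *PTPRC*, *POU5F1* and *NANOG*, which mark immune and pluripotent cells, were not. Being listed does not tell cell types apart, since 6 of 7 stromal and 2 of 3 endothelial markers were also listed at 24 h. The progenitor marker *PTF1A* was near the floor, with a mean normalized count of 12.5. At 24 h the endocrine genes *NEUROG3* (log2 fold change 2.54 ± 0.12, SE) and *CHGA* (1.05 ± 0.13), *PDX1* (0.60 ± 0.033), the hepatic genes *APOA1* (0.72 ± 0.16) and *APOB* (0.52 ± 0.048) and the intestinal gene *CDX2* (0.91 ± 0.051) were higher on LN411, and all 6 were past the threshold. So was the progenitor gene *GATA4* (0.52 ± 0.054). The other endocrine markers, *INS* (0.19 ± 0.54) and *GCG* (0.80 ± 0.58), and the other hepatic marker, *ALB* (0.35 ± 0.20), were not called. Thus 2 of 4 endocrine and 2 of 3 hepatic markers were called higher. Of the 9 progenitor markers, 2 were called at 24 h, both higher, where 16.7% of all genes were called upregulated. At that time 7 of the 9 lay above 0 and 2 below, *NKX6-1* (-0.15 ± 0.21) and *GATA6* (-0.12 ± 0.066). *FOXA2* was at 0.077 ± 0.038 at 24 h and was not called. *CDX2* was already higher at 3 h (0.21 ± 0.052) and 6 h (0.53 ± 0.051), and *PDX1* (0.27 ± 0.033) and *FOXA2* (0.20 ± 0.038) were higher at 6 h. Of the 6 stromal markers tested at 24 h, *PDGFRA* was higher (0.49 ± 0.089) and *PDGFRB* lower (-0.66 ± 0.20). Their part in the results below was not tested.

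The members differed widely in level. Per kilobase of the longest annotated transcript, the mean normalized count in the authors' deposited table was 2026 for *LMNB2*, 1682 for *SUN1*, 1669 for *TMPO*, 1648 for *EMD*, 1580 for *LMNA*, 1305 for *LBR* and 1215 for *LMNB1*. *SUN2* was lower at 559, and the giant nesprins were lowest, with 209 for *SYNE2* and 51.9 for *SYNE1*. *LMNB2* thus stood above 92.7% and *SYNE1* above 35.4% of all genes with a known length. These levels are means over all 18 samples and carry no spread. The order among the 7 most abundant genes depended on the length used: per kilobase of the union of all exons, *LMNB1* was at 1163 and *LMNA* at 702. By each of the 3 lengths tried, *LMNB2* was above *LMNA*, and *SUN2*, *SYNE2* and *SYNE1* took the last places in that order.

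**Figure D1:**
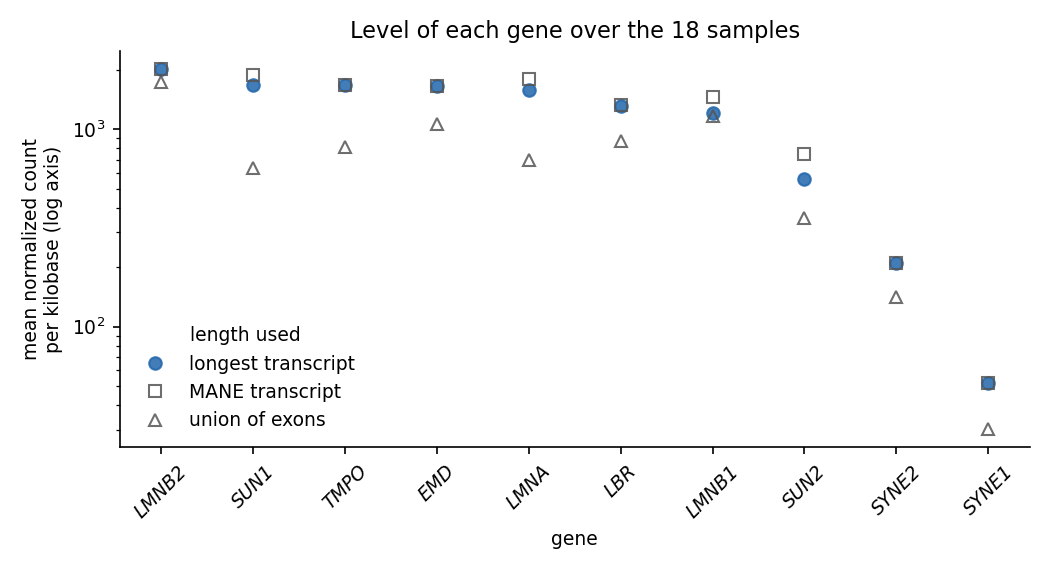
Mean normalized count per kilobase over the 18 samples on a log axis, for each member, using the length of the longest transcript (filled circles), of the MANE transcript (squares) or of the union of exons (triangles). By the longest transcript, 7 genes lie between 1215 and 2026, and *SYNE1* lies lowest at 51.9.

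RefSeq promoter windows on GRCh38.p14 were matched for 9 of the 10 genes, all except *SUN1*. The 250 bases before the annotated start are shown for 4 of them, *LMNB2* and *EMD*, which were called lower at 24 h, and *LMNB1* and *TMPO*, which were not, so that the upstream sequence can be read beside the values of lamina genes with either outcome. Capitals mark the CCAAT box (CCAAT) and the cell cycle gene homology region (TTTGAA), searched on both strands. The windows lie at chr19:2456960-2457209 (minus strand), chrX:154379045-154379294 (plus strand), chr5:126776886-126777135 (plus strand) and chr12:98515340-98515589 (plus strand), and each is written 5′ to 3′ on the strand of its gene.
LMNB2: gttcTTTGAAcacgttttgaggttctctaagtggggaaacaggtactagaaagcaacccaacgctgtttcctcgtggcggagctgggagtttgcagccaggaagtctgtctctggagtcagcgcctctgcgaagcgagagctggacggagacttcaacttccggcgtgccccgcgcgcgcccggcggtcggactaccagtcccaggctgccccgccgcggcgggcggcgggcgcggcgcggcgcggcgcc
EMD: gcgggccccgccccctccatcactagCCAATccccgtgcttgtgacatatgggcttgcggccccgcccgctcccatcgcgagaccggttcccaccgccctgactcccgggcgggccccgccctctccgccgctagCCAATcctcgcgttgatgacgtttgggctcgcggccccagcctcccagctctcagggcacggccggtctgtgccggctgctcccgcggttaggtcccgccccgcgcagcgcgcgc
LMNB1: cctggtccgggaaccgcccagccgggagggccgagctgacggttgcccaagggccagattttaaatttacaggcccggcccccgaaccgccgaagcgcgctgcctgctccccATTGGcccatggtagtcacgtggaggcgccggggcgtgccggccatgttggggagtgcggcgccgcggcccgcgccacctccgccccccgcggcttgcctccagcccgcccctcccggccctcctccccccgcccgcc
TMPO: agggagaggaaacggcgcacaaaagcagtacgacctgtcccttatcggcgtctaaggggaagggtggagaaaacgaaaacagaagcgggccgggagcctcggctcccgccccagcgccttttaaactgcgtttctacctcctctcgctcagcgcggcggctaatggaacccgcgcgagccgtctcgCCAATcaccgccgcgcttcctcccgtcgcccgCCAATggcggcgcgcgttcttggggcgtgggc

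The windows of *LMNB1*, *EMD* and *TMPO* held a CCAAT box, and so did that of *SUN2*. This made 4 of 9 members, where 32.01% of all 35116 RefSeq windows of this length held one. The cell cycle gene homology region was found in 2 of 9, *LMNB2* and *SUN2* (13.32% of all windows), and the GC box GGGCGG in 7 of 9 (42.64%). *EMD* had 6 GC boxes and *SYNE1* and *LBR* none. The letters GGAATG, the core that TEAD factors bind, were in none of the 9 windows (11.89% of all windows), and neither was the CArG box of serum response factor (1.159%). The windows of *LMNA* and *LBR* lie at RefSeq starts 7995 and 783 bases from the start of the MANE transcript, and the other 7 lie at that start. No match overlapped a match of another motif, and these are letters in a window, not measured sites. *EMD*, which was called lower at 24 h, and *TMPO*, which was not, each held 2 CCAAT boxes.

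At 3 h none of the 10 genes was called. Among all genes, 0.383% were called at this time (67 of 17487 tested), so that the count says little about the members. Their log2 fold changes ran from -0.038 for *TMPO* to 0.084 for *SUN2*. Between these lay *LBR* (-0.034), *SYNE2* (-0.020), *LMNB1* (0.0046), *LMNA* (0.0094), *EMD* (0.023), *LMNB2* (0.031), *SUN1* (0.033) and *SYNE1* (0.065). The adjusted p-value was 0.9999 for each member. By the Wald test 0 members had an unadjusted p-value under 0.05, beside 5.03% of all genes. The median over the members was 0.016, beside 0.0093 over all genes tested. Of the 95% confidence intervals, that of *SYNE1* was widest, from -0.22 to 0.35, and those of *LMNA* (-0.070 to 0.089) and *SUN1* (-0.042 to 0.11) were the narrowest.

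At 6 h *SYNE2* alone was called, with a level 17.5% lower on LN411 (log2 fold change -0.28 ± 0.072, SE, adjusted p = 0.00308). The call was lost under 4 of 8 alternatives, among them a t distribution in place of the normal one (adjusted p = 0.0658) and removal of the trends with GC content and transcript length (adjusted p = 0.0917), with adjusted p-values from 0.000939 to 0.104 over all 8. In all 8.23% of genes were called at 6 h, and 3.33% were called downregulated, against 1 of 10 members. *SYNE1* was listed 19.8% lower, but with a wide interval (-0.60 to -0.033) and an adjusted p-value of 0.176. *SUN2* was 7.15% higher, with an adjusted p-value of 0.214. The lamins lay close to 0 at this time, with log2 fold changes of -0.011 for *LMNA*, 0.025 for *LMNB1* and 0.027 for *LMNB2*, and the interval of *LMNA* ended at -0.090 and 0.068. *EMD* (0.036), *TMPO* (0.034), *LBR* (0.065) and *SUN1* (-0.026) were not called either. An unadjusted p-value under 0.05 by the Wald test was found for 3 members, beside 14.1% of all genes. The median over the members was 0.026, beside 0.022 over all genes tested.

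At 24 h the RNA of some members was lower on LN411. *LMNA*, *LMNB2*, *EMD*, *SYNE1* and *SYNE2* were called lower, and no member was called higher. These were 5 of 10 members, where 29.5% of all genes tested were called (12.8% downregulated and 16.7% upregulated). An unadjusted p-value under 0.05 was found for 6 members by the Wald test, beside 37.7% of all genes, 8 lay below 0, and the median was -0.14, beside 0.012 over all genes. The members that were not called, *LMNB1*, *LBR*, *TMPO*, *SUN1* and *SUN2*, had log2 fold changes from -0.088 to 0.013.

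**Figure D2:**
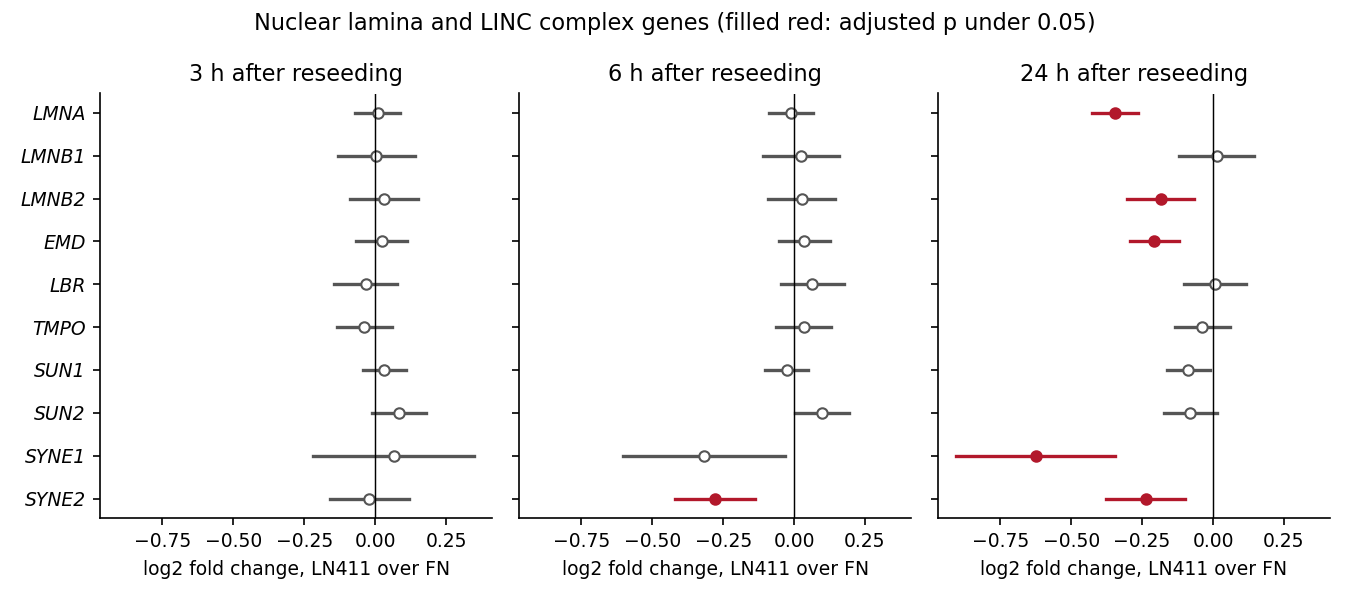
Log2 fold change (LN411 over FN) for each member at 3, 6 and 24 h, with 95% confidence intervals (lines) from the SE of the deposited table. Filled red points are past an adjusted p-value of 0.05: none at 3 h, *SYNE2* at 6 h and 5 genes at 24 h, all of them below 0.

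Among the lamins, *LMNA* (chr1:156082573-156140081, plus strand, GENCODE v44 on GRCh38) showed the most precise decrease. Its level was 21.3% lower on LN411 at 24 h (log2 fold change -0.35 ± 0.041, SE, 95% confidence interval -0.43 to -0.26, adjusted p = 1.33e-15). Of all genes tested at 24 h, 13.4% were lower and 3.49% had a smaller p-value. *LMNB2* (chr19:2427638-2456959, minus strand) was 12.04% lower (-0.19 ± 0.061, interval -0.30 to -0.066, adjusted p = 0.0103). This call was lost when the trends with GC content and transcript length were removed (-0.14, adjusted p = 0.0648). *LMNB1* (chr5:126776623-126837020, plus strand) was not called (0.013 ± 0.068, adjusted p = 0.920), and its interval, -0.12 to 0.15, lay wholly above that of *LMNA*. In order of log2 fold change, the A-type gene was lowest, *LMNB2* lay between and *LMNB1* was near 0. The difference between genes was not tested, since it needs values of single samples. Reads were counted per gene, so that lamin A and lamin C cannot be told apart.

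Of 5 genes for enzymes that mature prelamin A, 0 were called at 24 h, where 29.5% of all genes were, so that a count over so few genes says little. Their median was -0.012. *ZMPSTE24*, which makes the last cut of prelamin A, was at -0.0011 ± 0.050, *ICMT*, which methylates it, at -0.043 ± 0.029, and *FNTB*, a subunit of its farnesyltransferase, at 0.011 ± 0.089. By the Wald test 0 of the 5 had an unadjusted p-value under 0.05.

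Of the inner nuclear membrane proteins, *EMD* (chrX:154379273-154381574, plus strand) fell by 13.4% at 24 h (-0.21 ± 0.044, interval -0.29 to -0.12, adjusted p = 2.70e-05). The others did not pass the test: *TMPO* (chr12:98515579-98550351, plus strand) was at -0.039 (interval -0.14 to 0.059) and *LBR* (chr1:225401502-225428925, minus strand) at 0.0084 (interval -0.10 to 0.12). The lower ends of these intervals correspond to changes of -8.97% and -6.75%. *TMPO* shares 646 exonic bases with *TMPO-AS1* on the opposite strand, itself at -0.22 with an adjusted p-value of 0.233, and a strand setting of the counting was not given in the sources used here. Among 15 other genes of the inner nuclear membrane and LINC complexes tested at 24 h, 0 rose and 2 fell, a share of 13.3% lower that is near the 12.8% of all genes. These were *ANKLE2* (-0.19 ± 0.041), which acts on BAF at the end of mitosis, and *TMEM43* (-0.16 ± 0.042), a binding partner of emerin. The count of 2 went to 1 with the trends of GC content, transcript length and genomic span removed and to 3 with another centring. *LEMD2* (-0.027), *LEMD3* (0.073) and *BANF1* (0.049), which encodes BAF, were not called. The median of these 15 was 0.016, near that of all genes.

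The SUN proteins showed small values. *SUN1* (chr7:816615-896435, plus strand) was 5.91% lower at 24 h (-0.088 ± 0.039), with an unadjusted p-value of 0.0233 and an adjusted p-value of 0.0727 by the Wald test. It was called when log2 fold changes were centred on the median of the genes whose mean normalized count reached 1000 (-0.11, adjusted p = 0.0207). *SUN2* (chr22:38733290-38794143, minus strand) was at -0.080 ± 0.048 with an adjusted p-value of 0.212, after 0.10 at 6 h. Exons of *SUN1* share 1842 bases with *GET4* on the same strand, and those of *SUN2* share 1135 bases with *GTPBP1* on the opposite strand. These neighbours were at -0.11 and -0.097 at 24 h and were not called.

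The nesprins gave the earliest call and the largest fold change among the members. *SYNE1* (chr6:152121687-152637801, minus strand) was 35.2% lower on LN411 at 24 h (-0.63 ± 0.14, interval -0.91 to -0.35, adjusted p = 9.46e-05). *SYNE2* (chr14:63761899-64226433, plus strand) was 15.2% lower (-0.24 ± 0.070, interval -0.38 to -0.10, adjusted p = 0.00387), close to its value at 6 h. *SYNE1* was the noisiest member: among the 1409 genes within 20% of its level, the median SE at 24 h was 0.059 and 1.99% had a larger SE than its 0.14. *SYNE3* (-0.25 ± 0.13, adjusted p = 0.129) and *SYNE4* (0.070 ± 0.12, adjusted p = 0.735), the smaller nesprins, were not called at 24 h. Annotation places RefSeq starts of *SYNE1* also 452.0 and 469.1 kb downstream of its MANE start, and of *SYNE2* 361.1 and 362.9 kb downstream. The counts per gene therefore merge giant nesprins, which bind actin, with short forms that begin near the 3′ end.

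At 6 h log2 fold changes over all genes were lower for longer transcripts, so transcript length is given beside the nesprin values. The longest transcripts of *SYNE1* and *SYNE2* have 27708 and 21842 bases. Among the 134 genes tested at 6 h with a transcript of at least 15 kb, 36 were called lower and 1 higher, or 26.9% lower against the 3.33% of all genes, and their median was -0.13. These 134 include *SYNE1* and *SYNE2* themselves, and *SYNE2* is among the 36. At 3 h none of 158 such genes was called (median -0.018), and at 24 h 44 of 166 were lower (26.5%, against 12.8% of all genes) and 18 higher (median -0.091). With the trends of GC content and transcript length removed, *SYNE2* at 6 h was at -0.19 and was no longer called. At 24 h *SYNE1* (-0.56), *SYNE2* (-0.18, adjusted p = 0.0357), *LMNA* (-0.31) and *EMD* (-0.22) were called after that removal. It did not bring the longest class to the level of the rest: the median of genes with transcripts of at least 15 kb was still -0.060 at 6 h and -0.040 at 24 h, beside 0.018 and 0.012 over all genes. The part of transcript length in the nesprin values was otherwise not tested.

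**Figure D3:**
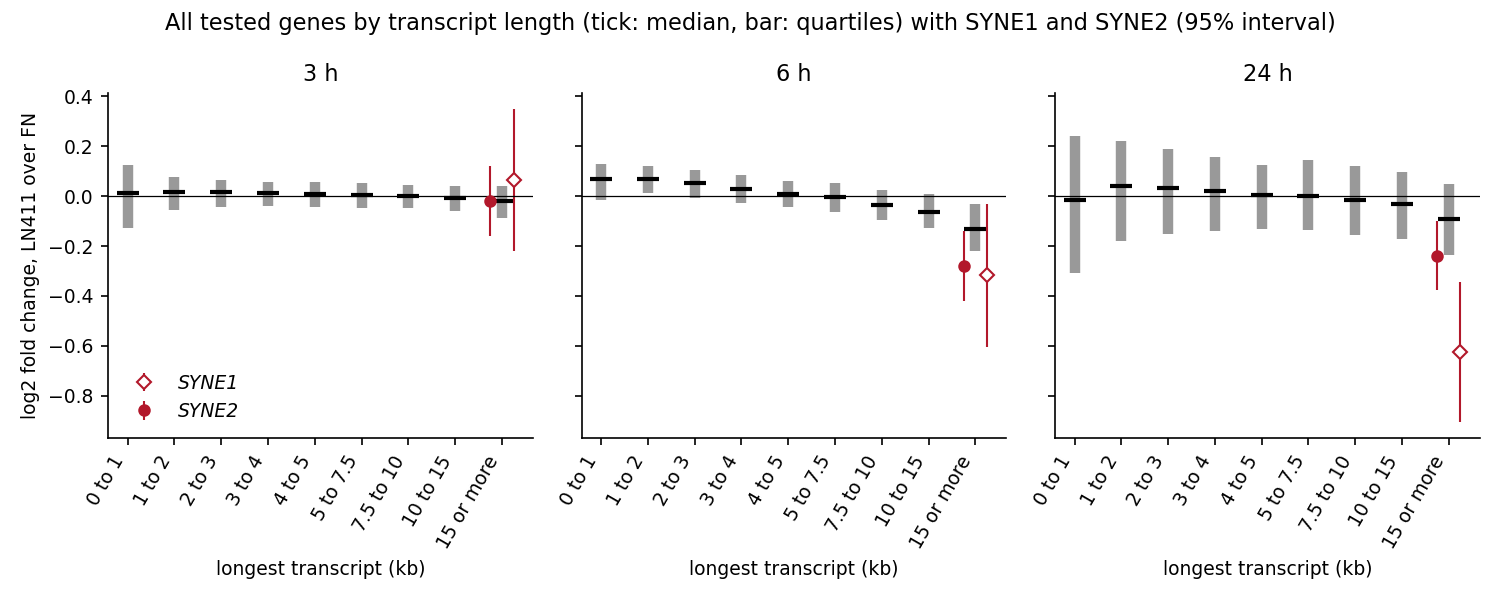
Log2 fold change (LN411 over FN) for all tested genes by the length of their longest transcript at 3, 6 and 24 h (black ticks: medians, grey bars: quartiles), with *SYNE1* (open diamonds) and *SYNE2* (filled circles) and their 95% confidence intervals. At 6 h the medians go from 0.067 for transcripts under 1 kb to -0.13 for those of at least 15 kb.

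Whether the effect of LN411 changed with time was tested on the difference of the log2 fold changes, treating times as independent, with adjustment over all genes listed at both times. Between 3 and 6 h no member differed, with 0.257% of genes called. *SYNE2* had the smallest unadjusted p-value there, 0.0105 by the Wald test (difference -0.26, adjusted p = 0.614). The effect on *SYNE2* at 6 h is therefore not shown to differ from that at 3 h.

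Between 6 and 24 h the effect differed for *LMNA* and *EMD*, 2 of 10 members against 12.8% of all genes. *LMNA* moved by -0.33 ± 0.057 (SE, adjusted p = 2.35e-07) and *EMD* by -0.24 ± 0.064 (adjusted p = 0.00210). *LMNB2* (-0.21, adjusted p = 0.0884) and *SUN2* (-0.18, adjusted p = 0.0613) did not pass, and the nesprins had wide intervals, from -0.71 to 0.092 for *SYNE1* and from -0.16 to 0.24 for *SYNE2*. Between 3 and 24 h the effect differed for *LMNA* (-0.35 ± 0.058, adjusted p = 2.83e-08), *EMD* (-0.23 ± 0.063, adjusted p = 0.00311) and *SYNE1* (-0.69 ± 0.20, adjusted p = 0.00644), 3 of 10 members against 17.0% of all genes. Under a t distribution *SYNE1* was no longer called (adjusted p = 0.0503), which left 2 members. The effect on *LMNA* and *EMD* thus differed between 6 and 24 h, whereas the time at which the nesprins became lower on LN411 than on FN was not resolved. For *LMNB1*, *LBR* and *TMPO* the differences between any 2 times lay between -0.072 and 0.098, and none was called.

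**Figure D4:**
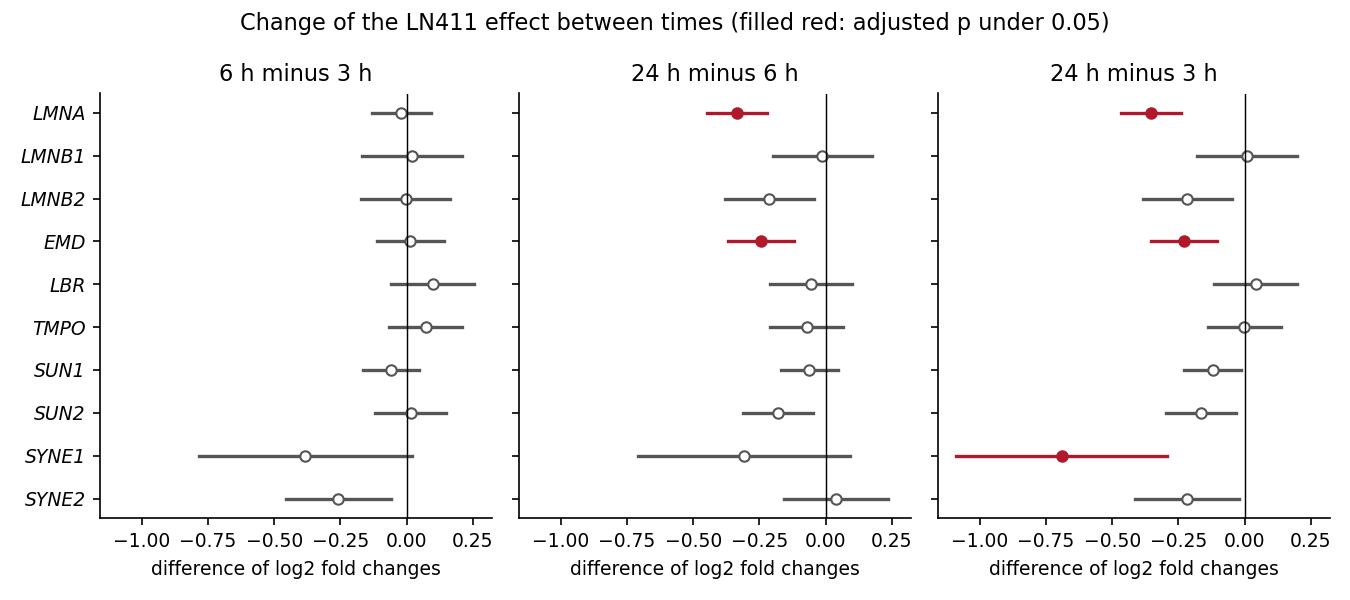
Difference between times of the log2 fold change (LN411 over FN) for each member, with 95% confidence intervals (lines). Filled red points are past an adjusted p-value of 0.05: *LMNA* and *EMD* from 6 to 24 h, and these with *SYNE1* from 3 to 24 h.

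The genes around the lamina were read from lists of related function. Nuclear pore genes fell in part at 24 h, with 10 of 32 lower (31.2%, where 12.8% of all genes were called lower), 0 higher and a median of -0.058. Among them were *SEH1L* (-0.33 ± 0.067) and the scaffold nucleoporins *NUP188* (-0.21 ± 0.043) and *NUP205* (-0.17 ± 0.043). At 6 h *TPR*, which forms filaments on the nuclear side of the pore, fell (-0.16 ± 0.032) and *GLE1*, an mRNA export factor, was called higher (0.14 ± 0.045, adjusted p = 0.0353), a call lost under 5 of the alternatives. The 1 lower gene is 3.1% of the 32, near the 3.33% of all genes called downregulated at 6 h. With another centring 3 pore genes were called lower at that time. Of the 10 cytoplasmic partners of nesprins, all were below 0 at 24 h and 3 were called: the kinesin light chains *KLC2* (-0.32 ± 0.048) and *KLC1* (-0.21 ± 0.052) and the dynein regulator *NDEL1* (-0.13 ± 0.044). That is 30% against the 12.8% of all genes, and the count went from 2 under a t distribution to 5 with one filter at all times and 6 with another centring. *PLEC*, the plectin that links nesprin-3 to intermediate filaments, was at -0.16 ± 0.078 and was not called. The median of this list was -0.14, like that of the members themselves.

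Of 13 genes listed as heterochromatin regulators or partners of lamina proteins, 3 were called higher and 2 lower at 24 h, with a median of 0.023. The 2 lower genes are 15.4% of the list, near the 12.8% of all genes, and all 5 stand beside 29.5% called in either direction. At 24 h *CBX3* (0.24 ± 0.040) and *CBX1* (0.096 ± 0.035), which encode forms of heterochromatin protein 1, and *GMCL1* (0.17 ± 0.038), which binds LAP2, rose. The count of 3 went to 2 under an adjusted p-value of 0.01, a t distribution, another centring and both trend removals, and *CBX1* had the largest adjusted p-value of the 3, 0.0250. *SUV39H2*, a histone H3 lysine methyltransferase, fell (-0.20 ± 0.059), and so did *LMO7* (-0.55 ± 0.058), an emerin partner that was already lower at 6 h (-0.47 ± 0.058). At 6 h *CBX3* was called higher (0.13 ± 0.040, adjusted p = 0.0291), a call lost under 6 of the alternatives. *LMO7* was lower than any of the members at 6 h. At 3 h 0 of the 13 genes were called by the Wald test, with *LMO7* at -0.19 ± 0.056 (adjusted p = 0.0996) and *GMCL1* at -0.13 ± 0.037 (adjusted p = 0.115). With another centring 1 gene of this list was called lower at 3 h.

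Because the lamina is taken apart and rebuilt at mitosis, cell division genes are given beside the members. At 24 h 15 of 27 were lower (55.6%, against 12.8% of all genes), 0 were higher, 26 lay below 0 and the median was -0.20. The count fell to 6 under a t distribution and likewise under an adjusted p-value of 0.01. *E2F1* (-0.38 ± 0.075), *MKI67* (-0.37 ± 0.15) and the mitotic kinase gene *AURKB* (-0.34 ± 0.13) had the largest decreases, with adjusted p-values of 5.17e-06, 0.0425 and 0.0278, so that *MKI67* and *AURKB* were not called at 0.01. At 6 h 3 were lower (11.1%, against 3.33% of all genes), the replication genes *MCM6* (-0.27 ± 0.044), *CDC6* (-0.22 ± 0.063) and *MCM3* (-0.14 ± 0.047), of which 1 was left under each of those 2 settings, and at 3 h none was called. *LMNB1*, *LBR* and *TMPO* were not called at 24 h. The part of cell division in the values of the members was not tested for any of them.

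**Figure D5:**
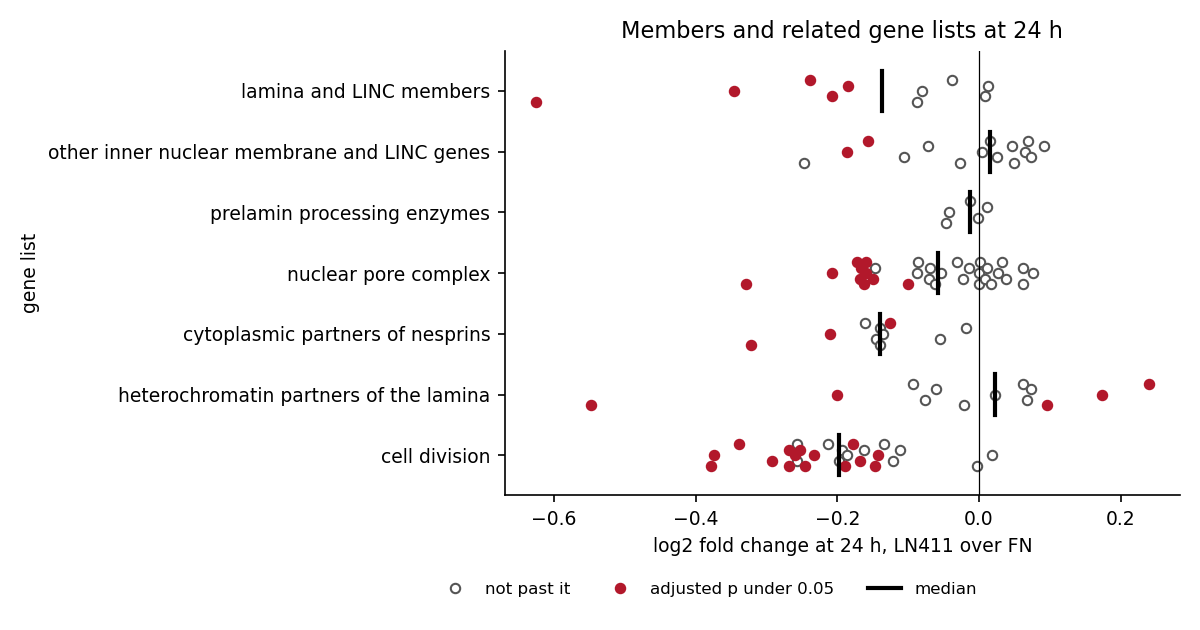
Log2 fold change (LN411 over FN) at 24 h for the members and for 6 lists of related genes, each point 1 gene (filled red: adjusted p-value under 0.05) and each black line the median of its list. The members' median is -0.14, that of the cell division genes -0.20 and that of the other inner nuclear membrane and LINC genes 0.016.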

How the data were processed

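RNA was sequenced from 18 samples in 6 groups taken from the sample labels. The authors made the reads into FASTQ files with bcl2fastq, aligned them with STAR 2.7.2d to hg38 (GRCh38) with GENCODE annotation, took read counts per gene from the aligner and tested LN411 against FN with DESeq2 1.34.0. The model formula and the strand setting were not given in the sources used here. Of the deposited columns, the mean normalized count is a signal scaled by size factors and averaged over all samples by the authors, the fold change and its SE are on the log2 scale as the authors fitted them, and the deposited Wald statistic is a score. The deposited p-value and adjusted p-value come from the authors' comparison and served only to identify the genes that passed independent filtering. The table's Wald p-values and Benjamini-Hochberg values were recomputed over those genes (largest gap to a deposited adjusted value, 9.72e-06), with 95% confidence intervals from the normal distribution. Genes with a mean normalized count under 17.1 at 3 h and under 108.2 at 6 h had not been tested. At 24 h no listed gene was left out in this way, so shares of all genes are not directly comparable between times.

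Differences between times were divided by the root of the summed squared SE. Shared differentiation batches, if any, are left out of this test. To remove trends, the median of each of 25 bins was subtracted, for GC content and then transcript length, in 3 rounds. Transcript lengths and positions came from GENCODE v44, matched by Ensembl identifier for 99.6% of genes, and promoters from RefSeq. The text names all 10 members at each time and, from each related list, up to 3 called genes per direction and time with the largest fold change, except 1 that is not reported here. Other genes of the lists were chosen after their values were seen. The members and lists were chosen with earlier results of these data known. Scripts were tested on simulated data. Python 3.11.15, numpy 2.4.6, pandas 2.3.3, scipy 1.17.1 and matplotlib 3.10.9 were used. Alternatives were a stricter threshold, other filters, a t distribution, a fold-change limit, another centring and trend removal.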

Additional observations from a re-analysis of the deposited data

Results flagged for a closer look

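The effect of LN411 differed between times for 3 members. For *LMNA* the log2 fold change at 24 h minus that at 6 h was -0.33, and that at 24 h minus that at 3 h was -0.35. For *EMD* these differences were -0.24 and -0.23. For *SYNE1* the difference between 3 and 24 h was -0.69, and under a t distribution (12 degrees of freedom) its adjusted p-value was 0.0503. Samples could not be searched for outliers, since values of single samples were not used.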

How the results depend on the processing

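No paired analysis was possible because values of single samples were not used. For the same reason leaving out single replicates, a replicate block, count models with other normalizations and filters on low counts were not run. Under a t distribution (12 degrees of freedom), 0 members were called at 6 h (*SYNE2*, adjusted p = 0.0658). With a log2 fold change of at least 0.5 as a limit, 0 were called at 6 h and 1, *SYNE1*, at 24 h. With the trends of GC content and transcript length removed, 0 were called at 6 h, and the same count of 0 was found when genomic span was added, an alternative chosen after seeing the data. At 24 h 4 to 6 members were called under the other settings, and no called value changed sign. *LMNB2* was lost at 24 h under an adjusted p-value of 0.01 and with trends removed. In the related lists the limit on the fold change left 1 gene, *LMO7* at 24 h. The difference between 3 and 24 h was called for 2 to 4 members and that between 6 and 24 h for 2 or 3. The adjustment over genes whose mean normalized count reached 100 added *SUN2* (6 to 24 h) and *LMNB2* (3 to 24 h). Depth per library is unknown. For *LMNB1* the interval at 24 h ran from -7.95% to 10.6%, so that a change within that range is not excluded. The smallest change that would have been called was not computed. The interval is narrower for members with a smaller SE at 24 h, such as *SUN1* (0.039, beside 0.068 for *LMNB1*).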
